A study of Mus musculus with 3 samples.

Results

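The mRNAs of Brip1, Trim41, Ccdc107, Rab4b, Mfsd11, Septin1, Cenpv, Cdca4 and Atn1 were examined for the one cytosine in each that stayed most unconverted in bisulfite sequencing. The 9 genes were taken by name from the 13224 named genes with a listed cytosine, and all their listed rows were kept (4639 cytosines). In each gene the strongest site was the cytosine with the highest mean unconverted share among those read at least 10 times in all 3 libraries, here called testable cytosines. There were 2293 testable cytosines in the 9 genes, of 1639820 in all transcripts. The genes and sites were thus chosen by the measured unconverted share, and their levels are described without a test.

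All 3 samples were polyadenylated RNA of mouse embryonic stem cells of the J1 background with the genotype Tet1-/-,Tet2-/-,Tet3-/-, grown on fibroblast feeders that were afterwards depleted by their faster attachment. They form 1 group of 3, with no other genotype and no unconverted control analysed here, so every comparison is between cytosines, genes or libraries within that group. The labels do not say that the samples came from separate cultures, so the spread between them may be technical. Nor do they name the deleted exons, and the few listed cytosines of Tet1 (16 to 19 per library) and the many of Tet2 and Tet3 (344 to 719) do not check the genotype.

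Bisulfite deaminates unmodified cytosine to uracil, which is read as thymine, whereas 5-methylcytosine stays cytosine. In mRNA such sites are rare and are known mainly as products of NSUN family methyltransferases. The same reading also arises from 5-hydroxymethylcytosine and from cytosines that escaped the reagent, for example in paired RNA, and the reads do not separate these. Tet proteins oxidise 5-methylcytosine. The 9 genes belong to no common pathway: they encode a DNA helicase, a ubiquitin ligase, membrane proteins, a small GTPase, a septin, a centromere protein and transcriptional regulators.

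The libraries summed to a coverage of 139884444 to 151362866, a sum in which long reads with many cytosines weigh more. Over all reads 1.53%, 1.45% and 1.41% of cytosines were unconverted in replicates 1, 2 and 3, the background against which each library was tested. All 10 embryonic stem cell markers had listed cytosines, although Nanog and Esrrb had only 28 each, at a mean coverage of 6.98 and 1.20 reads per library (the 10 took 0.457% to 0.475% of all coverage). Of 10 fibroblast markers 7 were listed, at 0.0522% to 0.0701% of all coverage, while Postn, Dcn and Lum had none. Among these 7, mean coverage per library ran from 5.04 reads in Col3a1 to 87.4 in Vim, with 14.5 in Col1a1 and 15.0 in Col1a2. Some fibroblast markers were thus read more deeply than some stem cell markers. Whether feeder RNA contributed reads to the 9 genes was not tested.

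The strongest sites ranged from 23.7% to 77.8% unconverted. Brip1, the FANCJ helicase that partners BRCA1 in DNA crosslink repair, had the highest, at position 4231 of its transcript (NM_178309.2). Positions count from 1 at the 5′ end of the transcript. There 66 of 92, 111 of 135 and 105 of 132 reads were unconverted in replicates 1, 2 and 3, or 77.8% ± 5.45 (SD, n = 3). Replicate 1 was the lowest at 71.7%, just above the highest library of the next gene (71.4%), so the library values did not overlap. With the reads of the 3 libraries pooled, the 95% Wilson intervals did overlap. They were 74.0% to 82.5% in Brip1 and 60.4% to 78.3% in the next gene. The order of these 2 sites was thus not resolved beyond counting error.

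That next gene was Trim41, a RING-type ubiquitin ligase. Position 111 of its transcript (NM_145377.2) was unconverted in 23 of 33, 25 of 35 and 20 of 29 reads, or 70.0% ± 1.26 (SD, n = 3). The 3 libraries lay within 2.46 points of each other. It was the only strongest site near the 5′ end, 2.46% of the way along the stretch with listed cytosines.

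Ccdc107, which encodes a coiled-coil protein, had its site at position 400 (NM_001037913.2) and was the least even of the 9. Its libraries gave 17 of 24, 14 of 20 and 7 of 19 reads, or 70.8%, 70.0% and 36.8%, a mean of 59.2% ± 19.4 (SD, n = 3). Replicate 3 stood apart from the other 2, but at this depth its 95% Wilson interval of 19.1% to 59.0% still overlapped that of replicate 1 (50.8% to 85.1%).

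Rab4b, a small GTPase of endosomal recycling, was unconverted at position 362 (NM_029391.2) in 28 of 57, 42 of 68 and 28 of 49 reads, or 56.0% ± 6.40 (SD, n = 3). Mfsd11, a membrane protein of the major facilitator type, was unconverted at position 2933 (NM_178620.3) in 15 of 24, 13 of 23 and 9 of 21 reads, or 54.0% ± 10.1. Septin1, a subunit of the GTP-binding septin filaments, was unconverted at position 1222 (NM_017461.2) in 15 of 30, 12 of 25 and 18 of 31 reads, or 52.0% ± 5.33. These 3 genes and Ccdc107 overlapped their neighbours in the order of levels, so their order was not resolved by the 3 libraries.

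Cenpv, a centromere protein involved in centromere organisation and cytokinesis, had one of the most even sites. At position 680 (NM_028448.1) 76 of 163, 77 of 166 and 79 of 163 reads were unconverted, or 47.2% ± 1.14 (SD, n = 3). Its libraries differed by 2.08 points, with 163 or more reads in each.

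The remaining pair stood 23.1 points below Cenpv, with no overlap. Atn1, or atrophin-1, a transcriptional corepressor whose human counterpart carries the polyglutamine expansion of dentatorubral-pallidoluysian atrophy, had 25 of 102, 26 of 102 and 27 of 121 reads at position 2806 (NM_007881.4), or 24.1% ± 1.63 (SD, n = 3). Cdca4, a SERTA-domain protein linked to cell-cycle transcription, had 68 of 260, 60 of 265 and 61 of 273 reads at position 2077 (NM_028023.3), or 23.7% ± 2.12. These 2 sites overlapped in level, and Cdca4 was the most deeply read of the 9.

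**Figure D1:**
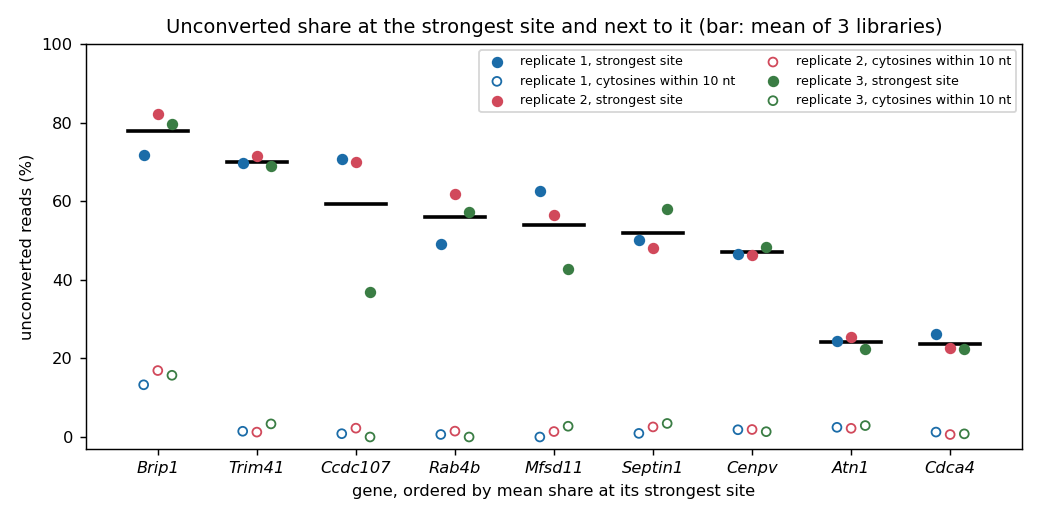
Unconverted reads in percent (y axis) for the 9 genes (x axis), with 1 filled point per library at the strongest site, a bar at the mean of the 3 libraries, and open points for the pooled reads of all other cytosines within 10 nt. The filled points run from 22.3% to 82.2%, and apart from Brip1 the open points stay at or below 3.45%.

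Whether the libraries differed at a site by more than counting error was tested with an exact Fisher-Freeman-Halton test of unconverted and converted reads. The p-values were adjusted by Benjamini-Hochberg over all 775 called cytosines of the series, which are defined below. None of the 9 sites passed (adjusted p = 1 for each, exact test), as did none of the 775 (0.00%), and none had an unadjusted p below 0.05, against 2.97% of the called cytosines of all genes. The lowest was that of Ccdc107 (unadjusted exact p = 0.0518), whose chi-square p, run as an alternative, was 0.0436 before adjustment and 0.935 after it. With 19 to 24 reads per library at that site, smaller differences were not detectable at this depth. Without molecular identifiers, PCR copies cannot be told from separate molecules, so all intervals and p-values over reads cover counting error alone.

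Each strongest site was set against the other cytosines of its own mRNA. A cytosine was called when its unconverted reads exceeded the library background (one-sided exact binomial test per library, combined by Fisher's method, adjusted p below 0.05 by Benjamini-Hochberg over all testable cytosines), its mean share was at least 10% and its share lay above the background in each library. Over all transcripts 775 cytosines were called, or 0.0473% of those testable. Among the 2284 testable cytosines of the 9 genes other than the strongest sites, 3 were called, or 0.131%.

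The first of these was position 4228 of Brip1, 3 nt upstream of its strongest site, where 49 of 139, 97 of 230 and 91 of 221 reads were unconverted, or 39.5% ± 3.74 (SD, n = 3). It was above the background in 3 of 3 libraries (adjusted p = 1.01e-259, exact binomial tests combined), and it shares reads with position 4231. The others lay far from the strongest site. Position 746 of Ccdc107 had 2 of 17, 3 of 22 and 3 of 17 unconverted reads, or 14.3% ± 3.01 (adjusted p = 0.00741, the same exact tests), 346 nt downstream. Position 279 of Septin1 had 1 of 16, 3 of 26 and 4 of 25, or 11.3% ± 4.88 (adjusted p = 0.0167, the same exact tests), 943 nt upstream. Each of these 2 rests on 8 unconverted reads over the 3 libraries. With a beta-binomial test, which allows for extra spread between cytosines, the site in Septin1 was no longer called, while those in Brip1 and Ccdc107 were. Without replicate 2, and likewise without replicate 3, the site in Brip1 was the only one of the 3 still called.

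No other testable cytosine was called in Trim41, Rab4b, Mfsd11, Cenpv, Cdca4 or Atn1, by the binomial or by a beta-binomial test. With an unadjusted combined p under 0.05 there were 17 of 481 in Trim41, 6 of 197 in Rab4b, 0 of 103 in Mfsd11, 36 of 276 in Cenpv, 10 of 382 in Cdca4 and 17 of 361 in Atn1, against 3.32% of all testable cytosines. With an adjusted p under 0.05 at any level there were 15 of the 2284 in all 9 genes, 7 of them in Cenpv, against 0.499% of all testable cytosines. Cenpv, whose listed cytosines had a median of 272 reads over the 3 libraries, stood out. Whether depth accounts for this was not tested.

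The distance from the strongest to the second highest testable site differed between the genes. In Rab4b and Mfsd11 the strongest share was 8.17 and 8.05 times the second, which was 6.85% ± 7.58 at position 834 of Rab4b and 6.70% ± 6.05 at position 1053 of Mfsd11 (SD, n = 3). In Trim41 it was 7.05 times the 9.94% ± 3.81 of position 2170. In Cenpv the ratio was 3.66 (12.9% ± 4.65 at position 175), in Cdca4 3.07 (7.72% ± 0.825 at position 846) and in Atn1 2.88 (8.36% ± 2.44 at position 2460). Brip1 had the smallest ratio, 1.97, to position 4228. The second sites of Ccdc107 and Septin1 were the called positions 746 and 279, at ratios of 4.13 and 4.62. Those of Rab4b, Mfsd11 and Trim41 had 4 of 52, 3 of 40 and 5 of 51 unconverted reads over the 3 libraries. Those of Cenpv and Atn1 had 5 of 39 and 5 of 59. None of these passed an adjusted p below 0.05 (exact binomial tests combined), so their ratios rest on few reads and do not order the genes. That of Cdca4, with 29 of 377, passed (adjusted p = 1.98e-08, the same exact tests).

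The single site made up an uneven part of all unconverted reads of its mRNA. In Brip1 it supplied 41.0% of the unconverted counts with 2.36% of the coverage. It supplied 20.9% in Ccdc107, 18.6% in Rab4b, 17.9% in Mfsd11 and 13.5% in Cdca4, and from 7.97% in Cenpv over Atn1 and Septin1 to 4.17% in Trim41. Without the strongest site, the unconverted share of the transcript ranged from 1.33% ± 0.163 in Septin1 to 1.66% ± 0.0882 in Cenpv in 8 of the genes (SD, n = 3). Brip1, with position 4228 still counted, stood at 2.73% ± 0.512. Of the 688 unconverted reads of Brip1, 282 were at the strongest site and 237 at position 4228. The share was above the library background in all 3 libraries in Cenpv and, with position 4228 counted, in Brip1. It was above the background in none of them in Septin1 and Cdca4, and in 2 of 3 in the other 5. The median over the 9 genes was 1.54% ± 0.0540, beside a background of 1.46% ± 0.0643. With 3 libraries the smallest p of an exact sign-flip test is 0.25, so none was run.

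Within 100 nt of the 9 strongest sites, 460 other cytosines were listed and 354 were testable. Position 4228 of Brip1 was the only one called. In 163 of the 460, no unconverted read was seen. Outside Brip1, the highest testable neighbour reached between 4.15% in Trim41 and 6.30% in Atn1. Over all neighbours within 100 nt the share ran from 1.35% ± 0.319 in Mfsd11 to 2.18% ± 0.0777 in Atn1 in these 8 genes (SD, n = 3). Atn1 was the only one of the 8 above the background in every library, with 2.09%, 2.22% and 2.22%. In Brip1 the neighbours had 4.64% ± 0.770, and 0.804% ± 0.00176 with position 4228 left out.

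Cytosines read by nearly the same molecules as the site were converted. In Rab4b the next listed cytosine, 2 nt downstream, was covered by as many reads as the site itself (174) and had 2 unconverted, against 98 at the site. In Cenpv the adjoining cytosine upstream had 11 unconverted of 490 reads, beside 232 of 492 at the site. In Septin1 the adjoining upstream cytosine had 3 of 90 and in Cdca4 the one 2 nt upstream 7 of 775. In Ccdc107 the cytosine 6 nt upstream had 0 of 55 reads, which allows a share of up to 5.45%, and in Mfsd11 that 4 nt upstream also had 0 of 55. Trim41 had 2 of 100 and 1 of 92 unconverted at 7 nt upstream and 5 nt downstream, and Atn1 had 6 of 344 and 7 of 254 at 2 nt upstream and 10 nt downstream. In all 9 mRNAs the nearest listed cytosine on either side, at most 10 nt away, had between 0% and 3.61% unconverted reads.

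Brip1 departs from a lone site. Around position 4231, cytosines at 3 nt upstream, 1 nt upstream and the site itself had 237 of 590, 8 of 367 and 282 of 359 unconverted reads, and the one 3 nt downstream had 0 of 76 (an allowed share of up to 3.95%). A mostly converted cytosine therefore lay between the 2 unconverted ones. In the other 8 genes no called cytosine lay within 100 nt of the strongest site. Of all 775 called cytosines in the series, 588 (75.9%) had no other within 100 nt, so a site without called neighbours was the usual case.

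**Figure D2:**
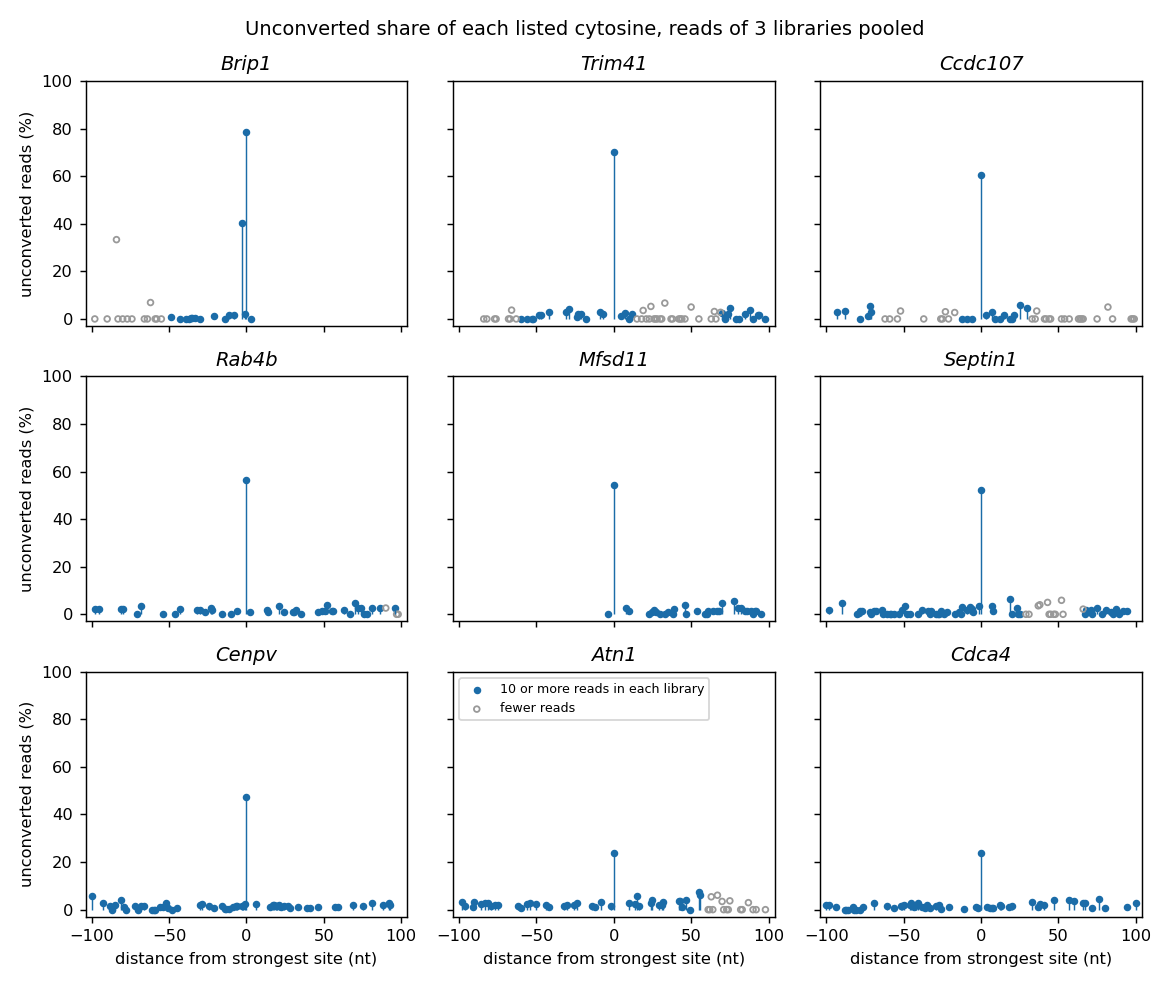
Unconverted reads in percent with the 3 libraries pooled (y axis) for each listed cytosine within 100 nt of the strongest site (x axis, distance in nt), in 1 panel per gene. Filled points have at least 10 reads in each library, open points fewer. A single tall point stands at distance 0 in 8 panels, and Brip1 has a second one 3 nt upstream.

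Coverage around the sites took several shapes. In Brip1 it formed a block with a sharp end. Coverage over the 3 libraries rose from 37 reads at 55 nt upstream to 606 at 30 nt upstream, stayed near that level to 590 at 3 nt upstream, and then fell to 367 at 1 nt upstream, 359 at the site and 76 at 3 nt downstream. Position 4234 was the last listed cytosine before a stretch of 504 nt that listed none, up to position 4738. All 3 libraries showed the drop, with 139, 230 and 221 reads at 3 nt upstream and 23, 25 and 28 at 3 nt downstream. Cytosines within 50 nt of the site made up 2.84% of the listed cytosines of Brip1 and 40.1% of its coverage, and the site was read 32.6 times as deeply as the median cytosine of the transcript. A fall to below 0.25 times the coverage at a listed cytosine within 5 nt, a measure chosen after seeing the values, occurred at Brip1 alone among the 9 and at 0.0260% of the testable cytosines that had a listed one that near. The gene also overlaps a pseudogene of another gene, Atp5l-ps2, and whether reads at the site came from it was not tested.

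Cdca4 and Rab4b lay at or near the top of a local peak. In Cdca4 the 798 reads of the site compared with a maximum of 939 at 12 nt downstream and with medians of 95 and 192 reads at 50 to 100 nt upstream and downstream. In Rab4b the site, with 174 reads, was not exceeded by any cytosine within 100 nt, and the flanking medians were 86 and 41. Trim41 had 97 reads, close to the local maximum of 108, with flanking medians of 25.5 and 44. In these 3 genes the median coverage at 50 to 100 nt was below 0.5 times that of the site on both sides, and the same held for 27.0% of all testable cytosines with listed cytosines in both windows. The count of 3 was among the 7 genes with such cytosines, and it fell to 1 (Cdca4) without replicate 1 and to 2 (Rab4b and Cdca4) without replicate 2. In Rab4b the upstream ratio of 0.494 was just under the limit.

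In Cenpv and Atn1 the site lay on a slope, and in Septin1 on a low rise between 2 troughs. Coverage in Cenpv was 492 reads at the site, rose to 4343 at 57 nt downstream, the deepest cytosine of the transcript, and had a median of 94 reads at 50 to 100 nt upstream. Atn1 ran the other way, from 610 reads at 62 nt upstream over 325 at the site to a median of 32.5 at 50 to 100 nt downstream. In Septin1 coverage fell from 706 reads at 98 nt upstream to 49 at 63 nt upstream and rose to 107 at 9 nt upstream. It was 86 at the site, 14 at 47 nt downstream and 147 at 87 nt downstream. The median at 50 to 100 nt was 72 and 83.5 reads on the 2 sides.

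The sites of Ccdc107 and Mfsd11 had the fewest reads of the 9, and the deepest cytosine of their transcripts had 127 and 107 reads. Ccdc107 had 63 reads at the site, 102 at 93 nt upstream and a median of 20 at 50 to 100 nt downstream. In Mfsd11 the site, with 68 reads, was the second listed cytosine after a stretch of 255 nt that listed none, from position 2674 to 2929. Coverage then rose to 102 reads at 26 nt downstream. Mfsd11 overlaps the splicing factor gene Srsf2, and a share of reads from that gene was not tested. Brip1 and Mfsd11 were the 2 genes with no listed cytosine at 50 to 100 nt on one side, a situation found at 5.89% of all testable cytosines.

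**Figure D3:**
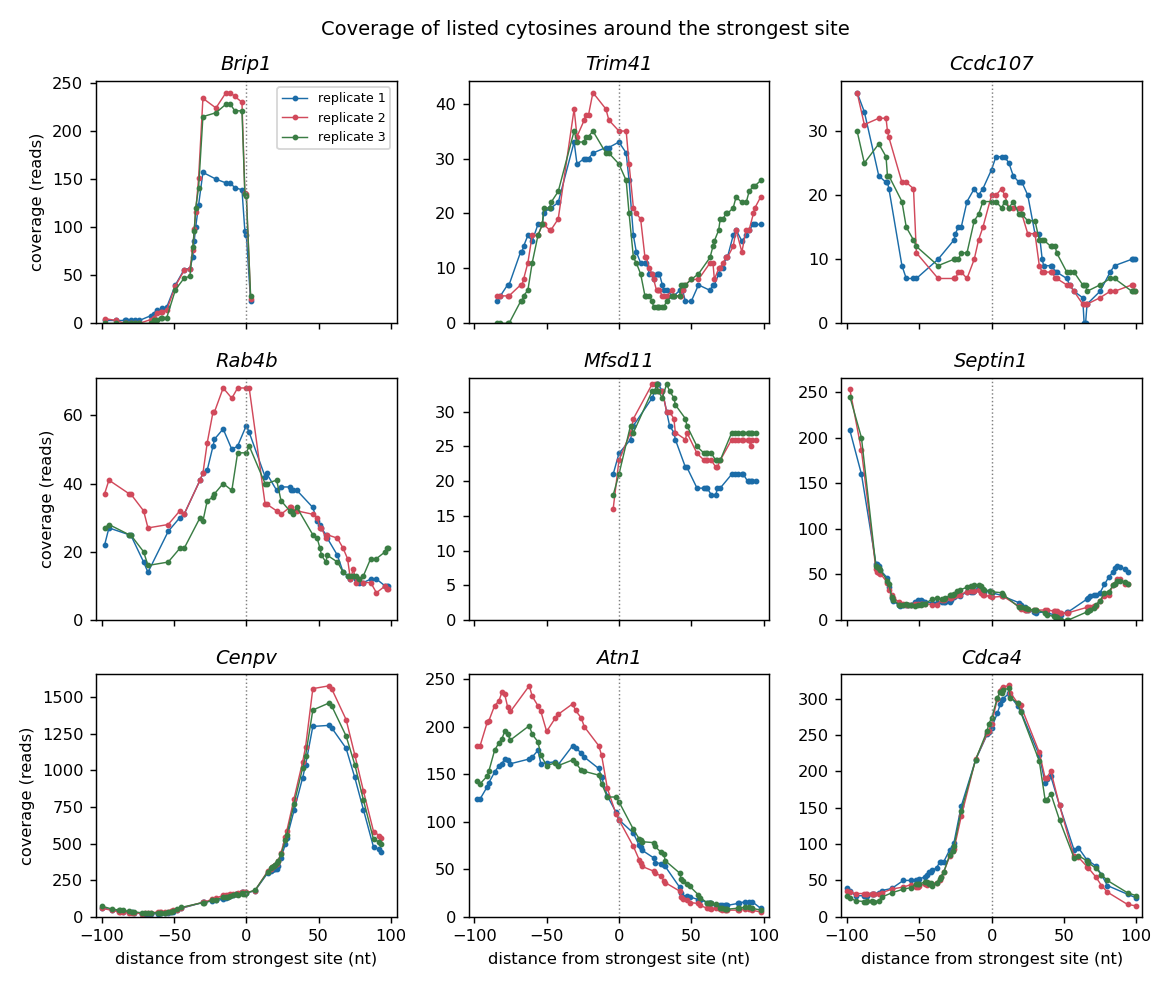
Coverage in reads (y axis, scale set per panel) of the listed cytosines within 100 nt of the strongest site (x axis, distance in nt), with 1 line per library. A cytosine listed in another library only is drawn at 0. Brip1 shows a sharp end, Cdca4 and Rab4b peaks, and Cenpv and Atn1 slopes in all 3 libraries. The flanks of Trim41, the upstream flank of Ccdc107 and the downstream flank of Rab4b differ between libraries.

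Each site was read more deeply than the median cytosine of its mRNA. The site ranked above 98.4% of the listed cytosines of Brip1 in coverage, 96.3% of Cdca4, 94.3% of Atn1 and 91.3% of Mfsd11, but only above 52.2% of Septin1. The deepest cytosine of the transcript had 12.5 times the reads of the site in Trim41, 9.49 times in Septin1 and 8.83 times in Cenpv, and between 1.50 and 2.34 times in the other 6. The site needs 10 reads per library to be chosen, which removes shallow positions. Cytosines too shallow for this rule with a higher mean share over the libraries that listed them numbered 8 in Atn1, 1 in Cenpv and 0 in the other genes. None of these had more than 4 reads in all.

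The spacing of cytosines around the sites was close to that of other cytosines. The median distance to the nearest listed cytosine was 2 nt upstream and 5 nt downstream, against 3 and 3 nt for all testable cytosines. Within 10 nt the median was 5 listed cytosines in both, and within 100 nt it was 55 against 50. The number within 100 nt ranged from 28 in Brip1, whose downstream side listed a single one, to 73 in Septin1. Brip1, Septin1 and Cenpv had a listed cytosine directly upstream (3 of 9, against 26.8% of testable cytosines). None of the 9 had one directly downstream, which 26.9% of testable cytosines had. This feature was noticed after the values were seen.

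CTCCA, with the methylated cytosine first, is the motif of the mRNA methyltransferase NSUN6, and CNGGG is a motif of NSUN2. CTCCA requires cytosines 2 and 3 nt after the site and none 1 and 4 nt after it. This spacing was found at 0 of the 9 sites, against 3.84% of testable cytosines, so 9 sites are too few to show a lack of it. The spacing that CNGGG requires, with no cytosine 2, 3 and 4 nt after the site, was found at 5 (Trim41, Mfsd11, Septin1, Cenpv and Atn1), against 42.7%. Of all called cytosines, the 9 included, 2.06% had the CTCCA spacing and 48.1% that of CNGGG. Among those called at 20% or above the shares were 2.30% and 60.9%. Many other sequences share these spacings, and the bases other than cytosine around the sites were not used here.

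Other named genes were searched for sites of the same kind, by called sites of at least 30% with no other called cytosine within 100 nt. Of the 18 such sites with listed cytosines on both sides, likeness was measured as the distance between the log2 ratios of flanking to site coverage and their medians over the genes with a ratio on that side (all but Mfsd11 upstream, all but Brip1 downstream). The nearest was position 1751 of Rab1a, a Rab GTPase of early secretory traffic, with 35.5% ± 1.35 (SD, n = 3) from 76 reads and a distance of 0.61. It was followed by Ubb (position 369, 85.3% ± 9.64, distance 1.47), Nid2 (position 521, 59.8% ± 4.20, distance 1.73), Lrrc58 (position 2907, 31.0% ± 8.51, distance 2.16) and Srsf6 (position 1251, 80.2% ± 9.90, distance 2.19). Ubb is a polyubiquitin gene with close copies, so the origin of its reads is uncertain. The distances rest on 1 coverage ratio per side and site, and the 9 genes themselves do not share a shape. Not all of the 9 meet the rule used for other genes, since Atn1 and Cdca4 lie below 30% and Brip1 has a called neighbour. Over all genes, the 9 included, 56 called sites in 50 genes reached at least the level of Cdca4.

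**Figure D4:**
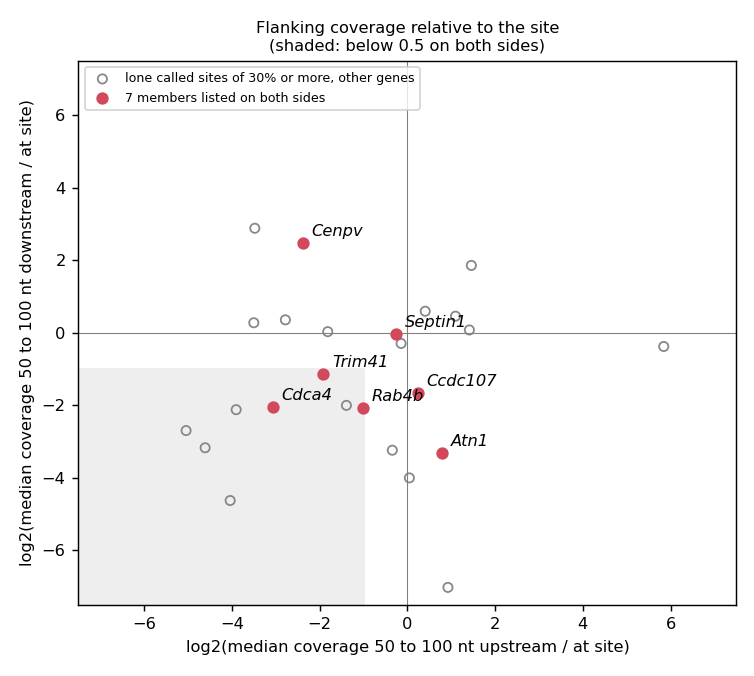
Median coverage 50 to 100 nt upstream (x axis) and downstream (y axis) relative to the site, as log2 ratios, for the 7 of the 9 genes with listed cytosines on both sides (filled) and the 18 lone sites of at least 30% in other genes (open). Trim41, Rab4b and Cdca4 lie in the shaded field below 0.5 on both sides, and Cenpv and Atn1 lie on opposite slopes.

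Relatives of the 9 genes were then read by the same call rule. In 103 testable genes of 8 lists, 11 of 20171 testable cytosines were called, or 0.0545%, beside the 0.0473% of all transcripts. TRIM genes held 5 of 5777 (0.0866%) in 3 genes. Trim71, an RNA-binding ubiquitin ligase of stem cells, had 3 of them, at positions 905, 908 and 1387. The highest was 16.7% ± 13.0 at position 908, and Trim44 had 14.0% ± 3.17 at position 606 (SD, n = 3). RAB genes held 3 of 3990 (0.0752%): the site in Rab1a, one in Rab15 (15.5% ± 2.09 at position 595) and one in Rab35. The Fanconi anaemia and helicase relatives of Brip1 held 1 of 4401 (0.0227%), in Fanca (12.3% ± 8.26 at position 2286). CENP genes held 1 of 2741 (0.0365%), in Cenpb (15.2% ± 7.42 at position 2269), and MFSD genes 1 of 1640 (0.061%), in Mfsd10 (20.2% ± 15.2 at position 666). With the beta-binomial test 6 of the 11 were called. The sites in Rab15, Rab35 and Cenpb and 2 of the 3 in Trim71 were lost, while the named sites in Trim71, Trim44, Rab1a, Fanca and Mfsd10 were still called.

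Septins, SERTA genes and the atrophin relative Rere held 0 of 863, 74 and 685 testable cytosines by the binomial and by the beta-binomial test, which allows up to 0.348%, 4.05% and 0.438%. With an unadjusted combined p under 0.05 they had 22 of 863, 0 of 74 and 20 of 685, against 3.32% of all testable cytosines. Apart from Rab1a and Mfsd10, no relative had a called site at 20% or above, whereas this level was exceeded by the strongest site of each of the 9 genes, which were chosen for it.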

How the data were processed

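The authors deposited 1 line per cytosine of the RefSeq mRNAs, with its coverage (a count of reads, at least 3) and the fraction of those reads left unconverted. BSMAP and build mm9 are named per the submitters' processing notes; the tool's version, the counting step and use of strand were not given in the sources used here. Multiplied by coverage, the deposited fraction was whole (within 1e-06) at 100% of cytosines and was taken as unconverted reads. Identifiers were matched to symbols without version by a GRCm38.p6 table, used for names and neighbours only (14932 of 15021 matched); each of the 9 genes had 1 listed transcript. Counted from 1, 81.1% of positions listed in the first 50 nt were a C in RefSeq promoter sequences of genes with 1 promoter, against 28.8% and 29.0% when shifted by 1 nt either way. Of the 9 genes 7 could be compared, and every such position was a C in all of them except Mfsd11 (7 of 11 at the better of its 2 promoters). The genes Brip1, Rab4b, Mfsd11, Septin1 and Cdca4 overlap others (Atp5l-ps2, Mir3101, Srsf2, Mylpf with Gm4532, and Gm52009), so reads there could be shared. Tests used SciPy 1.17.1 and were checked on simulated data. The simulated background cytosines varied by counting error alone, so false calls from extra spread between cytosines were not checked. Named were the 9 genes, their strongest, second and called sites and nearest neighbours, up to 5 alike sites and up to 2 relatives per list. The members and lists were chosen with earlier results of these data known. Alternatives were coverage and level minimums, other tests, other windows and leaving out each replicate. Testable cytosines had a median of 33, 30 and 29 reads in replicates 1, 2 and 3, so that 0 unconverted reads (limit: 3 counts) still allow 9.09%, 10.0% and 10.3%. No sequence of the sites and no genome coordinates were used here.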

Additional observations from a re-analysis of the deposited data

How the results depend on the processing

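The strongest site kept its position in every alternative run except in Ccdc107. There a coverage minimum of 20 reads removed position 400 (19 reads in replicate 3) and left position 328 at 5.25%. In the other runs the mean share of the strongest site moved by less than its SD. Leaving out 1 of 3 libraries cannot move a mean by its SD, so those runs could not exceed this limit. In Ccdc107 the mean was 70.4% without replicate 3, against 59.2% with all 3. The other called cytosines of the 9 genes, 3 in the report, numbered 1 at a coverage minimum of 20, 1 at a level minimum of 20%, 9 at a level minimum of 5%, 1 with the highest of the 3 p-values and 1 to 3 with a replicate left out. Those of the relatives, 11 in the report, numbered 5, 2, 58 and 1 under the first 4 of these settings, 6 with the beta-binomial test and 8 to 10 with a replicate left out. The share called among all testable cytosines moved too, from 0.0473% to 0.0487%, 0.00531%, 0.203% and 0.00665% under the first 4 settings. It was 0.0345% with the beta-binomial test and 0.0428% to 0.0467% with a replicate left out. Genes with low coverage on both sides, 3 in the report, numbered 1 at a ratio below 0.25 and 1 to 3 with a replicate left out. Of all testable cytosines with listed ones in both windows, 10.9% and 26.3% to 26.7% did so. The median unconverted share of neighbours, 1.54% within 100 nt, was 1.30% within 50 nt and 1.97% within 10 nt. Fewer cytosines or reads enter at stricter minimums and narrower windows; otherwise the cause was not tested. The remaining alternatives for these results, for the rest of the transcript and for evenness between libraries stayed within 1.5 times the count or within 1 SD. For means with a replicate left out, the limit of 1 SD could not be exceeded. No paired analysis was possible because the samples form a single group.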
